A study of Mus musculus with 9 samples.

Results

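DNA methylation writers, readers and erasers are here the genes whose products place methyl groups on the cytosines of CG dinucleotides, bind to methylated CG, take the mark away or have been linked to its removal. They were examined here as a set of 10 genes, Dnmt1, Dnmt3a, Dnmt3b, Uhrf1, Mbd2, Tet1, Tet2, Tet3, Gadd45a and Gadd45b, of 19072 genes tested. The genes were chosen by name, and every probe of the arrays that the RefSeq accession of its design sequence assigns to one of them was taken, which gave 18 probes. Of these, 16 probes passed the filter of being well above background on 3 or more of all 9 arrays, and all 10 genes kept at least 1 such probe. The 16 probes were above background on all 9 arrays. The 2 others were a Tet1 probe above background on 0 arrays and a Uhrf1 probe above background on 1 array.

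The arrays measured RNA of sorted mouse CD4+ T cells of the BALB/c background, taken from spleen and lymph nodes and enriched for CD4 with magnetic beads. Th17 cells were sorted as CD3+ CD4+ CD45RB low cells that secreted IL-17A and no interferon gamma (3 arrays), Th1 cells as CD3+ CD4+ CD45RB low cells that secreted interferon gamma and no IL-17A (3 arrays), and naive cells as CD3+ CD4+ CD45RB high cells (3 arrays). CD45RB is a form of the surface phosphatase CD45 that T cells lose once they have met antigen. Every population, the naive one included, received PMA at 10 ng/ml, a phorbol ester that activates protein kinase C, and ionomycin at 500 ng/ml, which lets calcium into the cell, for 3 h, so each level is that of stimulated cells. In comparisons with naive cells the secreted cytokine and the CD45RB gate change together and cannot be told apart.

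A new strand of DNA is unmethylated after replication, and Dnmt1 copies the pattern of the old strand onto it after Uhrf1 has recognised the half-methylated site. Dnmt3a and Dnmt3b methylate sites that carried no mark on either strand. Tet enzymes oxidise methylcytosine in a reaction that consumes 2-oxoglutarate, and base excision repair can then replace the oxidised base, while Mbd2 binds methylated CG and recruits the NuRD complex, a chromatin remodeller with histone deacetylases. Gadd45 proteins are stress-inducible adaptors of kinase signalling that have also been linked to removal of DNA methylation. In CD4+ T cells DNA methylation is known for keeping cytokine genes silent in cells that do not use them, and T cells of mice that lack Dnmt1, Mbd2 or Tet2 show altered cytokine expression. No DNA methylation was measured here, only RNA.

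The promoters of 5 of the genes are shown because these genes differed between populations, with the CG dinucleotide, the site of the methyl mark. RefSeq promoter windows of build GRCm38.p6, from 250 bases before to 50 after the start of transcription, were at hand for 9 of the 10 genes (14 windows). The window of Tet2 (chr3:133544341-133544640, minus strand) holds 57 CG dinucleotides and that of Dnmt3b (chr2:153649199-153649498, plus strand) holds 30. Those of Gadd45b (chr10:80929841-80930140, plus strand) and Gadd45a (chr6:67037358-67037657, minus strand) hold 24 and 14. Over all 32851 windows the median is 7, with quartiles of 3 and 20, so the Tet2, Dnmt3b and Gadd45b windows lie above the upper quartile. CG dinucleotides are in capitals in the 4 sequences, each written 5′ to 3′ on the strand of the gene.
Tet2: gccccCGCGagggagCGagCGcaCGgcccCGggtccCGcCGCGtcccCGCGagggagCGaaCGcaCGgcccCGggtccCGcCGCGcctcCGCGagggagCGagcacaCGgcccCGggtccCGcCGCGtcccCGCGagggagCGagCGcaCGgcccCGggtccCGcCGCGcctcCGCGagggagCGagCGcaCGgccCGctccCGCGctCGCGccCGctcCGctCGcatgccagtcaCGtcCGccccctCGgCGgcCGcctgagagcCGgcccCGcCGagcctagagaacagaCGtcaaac
Dnmt3b: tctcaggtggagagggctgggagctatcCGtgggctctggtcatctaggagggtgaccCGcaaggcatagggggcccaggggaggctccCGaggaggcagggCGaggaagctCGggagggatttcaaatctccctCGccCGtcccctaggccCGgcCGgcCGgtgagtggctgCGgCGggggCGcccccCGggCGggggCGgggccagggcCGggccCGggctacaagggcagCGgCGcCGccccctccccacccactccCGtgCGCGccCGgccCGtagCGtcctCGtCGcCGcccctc
Gadd45b: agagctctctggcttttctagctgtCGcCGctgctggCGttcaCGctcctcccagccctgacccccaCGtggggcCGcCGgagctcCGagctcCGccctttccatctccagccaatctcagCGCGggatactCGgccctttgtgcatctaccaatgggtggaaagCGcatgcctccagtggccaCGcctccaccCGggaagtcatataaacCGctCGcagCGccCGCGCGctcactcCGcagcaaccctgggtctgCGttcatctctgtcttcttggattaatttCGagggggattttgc
Gadd45a: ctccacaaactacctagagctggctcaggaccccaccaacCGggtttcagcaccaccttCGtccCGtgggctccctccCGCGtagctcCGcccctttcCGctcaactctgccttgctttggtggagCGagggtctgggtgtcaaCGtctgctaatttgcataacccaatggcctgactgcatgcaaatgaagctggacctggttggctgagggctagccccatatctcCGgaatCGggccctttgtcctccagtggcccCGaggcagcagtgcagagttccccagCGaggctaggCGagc

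Dnmt1 and Uhrf1 are known for expression in dividing cells, and their windows were searched on both strands for the E2F-type cores TTCCCGC and TTGGCGC. Dnmt1 has 3 windows, of which 1 holds TTGGCGC, 34 bases after the start. Of the 2 Uhrf1 windows, 1 holds TTCCCGC, 48 bases before the start (first base at -48). Either core is present in 6.81% of all windows. For Gadd45a and Gadd45b, which NF-kappa-B is known to regulate, the kappa-B cores GGGACTT and GGGAATT were searched on both strands and neither is in these windows, against 8.81% of all windows with either core. The Dnmt1 window with the core (chr9:20952574-20952873, minus strand) is shown with the core in capitals.
Dnmt1: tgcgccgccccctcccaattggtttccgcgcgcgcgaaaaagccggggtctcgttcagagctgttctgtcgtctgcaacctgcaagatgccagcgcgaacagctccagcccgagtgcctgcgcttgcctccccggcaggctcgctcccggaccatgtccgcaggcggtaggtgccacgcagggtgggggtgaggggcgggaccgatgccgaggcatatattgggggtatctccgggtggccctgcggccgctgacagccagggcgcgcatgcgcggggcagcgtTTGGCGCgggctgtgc

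The transcripts of the cytokines used to sort the cells were highest in the populations sorted for them. These genes stand for the sort gates and are no independent check of the labels. The level of Il17a averaged 9.24 ± 0.24 in Th17 cells, -0.77 ± 1.5 in Th1 cells and -3.03 ± 2.43 in naive cells, and that of Ifng 1.72 ± 0.48 in Th17 cells, 9.12 ± 0.18 in Th1 cells and 1.42 ± 0.17 in naive cells (SD, n = 3 each). A level is the log2 intensity of the brightest probe of a gene minus the 75th percentile of its array, so that 1 unit is a 2-fold difference, and levels of different genes are not comparable. All 7 CD4 T cell markers, Cd3e, Cd4 and Ptprc among them, were above background on every array. The 7 Th17 markers were all higher in Th17 than in Th1 cells, and 5 of 7 Th1 markers were lower (adjusted p under 0.05 by limma). Of the Th1 markers, Il12rb2 was at -3.69 in Th17, -3.65 in Th1 and -3.31 in naive cells, and Il18r1 at 2.59, 1.65 and -2.88. Tbx21 was at 4.91 in Th1 and 4.76 in naive cells. Of 7 naive cell markers, Il7r was lowest in naive cells, at 0.88 against 3.72 in Th17 and 2.87 in Th1 cells. Of 7 B cell markers, 5, 5 and 4 were above background on no Th17, Th1 or naive array, Ms4a1 among them in all 3 populations, and the summed linear level of the list was 0.751 to 1.0 in Th17 cells, 0.941 to 1.15 in Th1 cells and 0.384 to 0.517 in naive cells. Cd22 was above background on every array, at -0.31 in Th17, -0.13 in Th1 and -1.49 in naive cells. Of 6 NK cell markers, Klre1, Ncr1 and Klrb1c were above background on no array, and Gzma and Klra1 on every array (summed level 0.541 to 3.93 in Th17, 1.44 to 7.24 in Th1 and 1.04 to 1.86 in naive cells). Of 7 measured myeloid markers, 4, 3 and 4 were above background on every Th17, Th1 or naive array, while Fcgr3 was above it on none. Itgam was at 4.45 in Th17, 4.72 in Th1 and 3.65 in naive cells, Csf1r at 1.37, 1.42 and 2.14, and Cd14 at -1.05, -3.52 and -4.11. The summed level of the list was 20.1 to 30.8 in Th17, 25.8 to 31.9 in Th1 and 17 to 17.2 in naive cells. Cd8a was above background on no array, while Cd8b1 was at -4.15 ± 0.27 in Th17, -4.05 ± 0.16 in Th1 and -0.74 ± 0.16 in naive cells (SD, n = 3 each). The part of B cell, myeloid and CD8 transcripts in the differences from naive cells reported here was not tested. The arrays lay on 3 slides. Slide 1 held the 3 naive arrays and Th1 replicate 1, slide 2 held Th1 replicates 2 and 3 with Th17 replicates 1 and 2, and slide 3 held Th17 replicate 3. No slide held both Th17 and naive cells, so a difference between these 2 populations has no within-slide value. A fit with slide as a block takes Th1 minus naive from slide 1 and Th17 minus Th1 from slide 2. It builds Th17 minus naive from these 2 differences. Every block change against naive cells therefore rests on Th1 replicate 1 as the only link to the naive arrays. Th17 replicate 3, alone on its slide, adds to no block change.

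Gadd45a fell in both cytokine-secreting populations relative to naive cells. Tet2 was highest in Th1 cells, lower in Th17 cells and lowest in naive cells. Mbd2 was higher in Th17 than in both other populations, Gadd45b and Dnmt3b were lower in Th17 and in Th1 than in naive cells, and Dnmt1 was lower in Th17 than in naive cells. Between Th17 and Th1 cells 2 of the 10 genes passed the test, beside 15.8% of all genes tested. In Th17 cells 1 of them was higher, Mbd2, beside 8.28% of all genes, and 1 lower, Tet2, beside 7.53%. For Th17 against naive cells 6 of 10 passed, beside 54.2% of all genes, with 2 higher beside 24.4% and 4 lower beside 29.7%. For Th1 against naive cells the count was 5 of 10, beside 53.9%, with 1 higher beside 23.5% and 4 lower beside 30.4%. These shares are close to those of all genes, so the counts are no result about the set. The median change of the 10 genes was -0.05 between Th17 and Th1 cells, 0.07 between Th17 and naive cells and -0.15 between Th1 and naive cells, beside 0.01, -0.09 and -0.09 over all genes. The 3 arrays of one population did not overlap with the 3 of the other for 3 of the 10 genes between Th17 and Th1 cells, for 7 between Th17 and naive cells and for 7 between Th1 and naive cells, beside 35.4%, 63.3% and 65.4% of all genes. A gene passed at an adjusted p under 0.05 by limma (two-sided, Benjamini-Hochberg over all 19072 genes). Changes are log2 fold changes ± SE with 3 arrays a population. In bulk RNA such as this, fewer cells with a transcript and less of it per cell cannot be told apart.

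**Figure D1:**
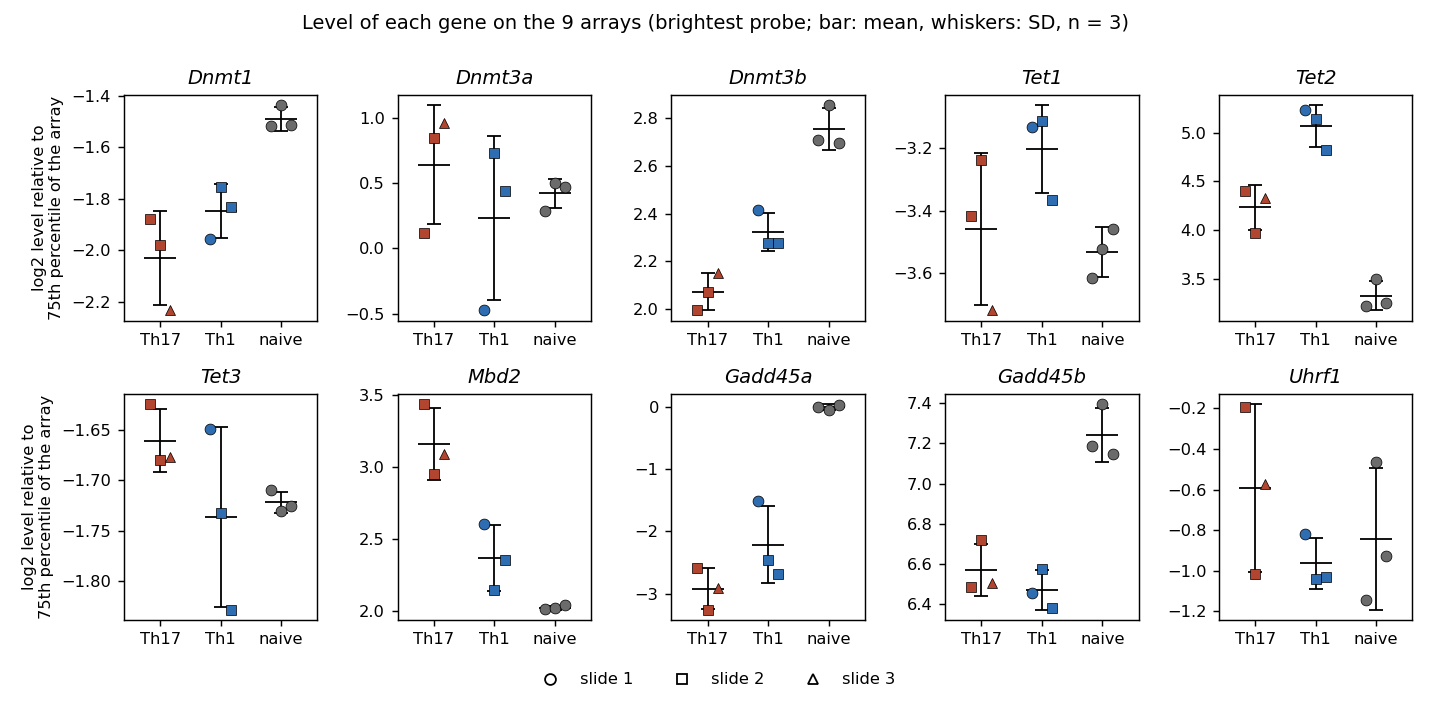
Level of each of the 10 genes on every array (y axis, log2 intensity of the brightest probe minus the array's 75th percentile), for Th17, Th1 and naive cells (x axis). Each point is 1 array with its slide given by the symbol, and the bar and whiskers are mean and SD of 3 arrays. Gadd45a, Gadd45b, Dnmt3b and Dnmt1 are highest on the 3 naive arrays, Tet2 on the 3 Th1 arrays and Mbd2 on the 3 Th17 arrays.

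**Figure D2:**
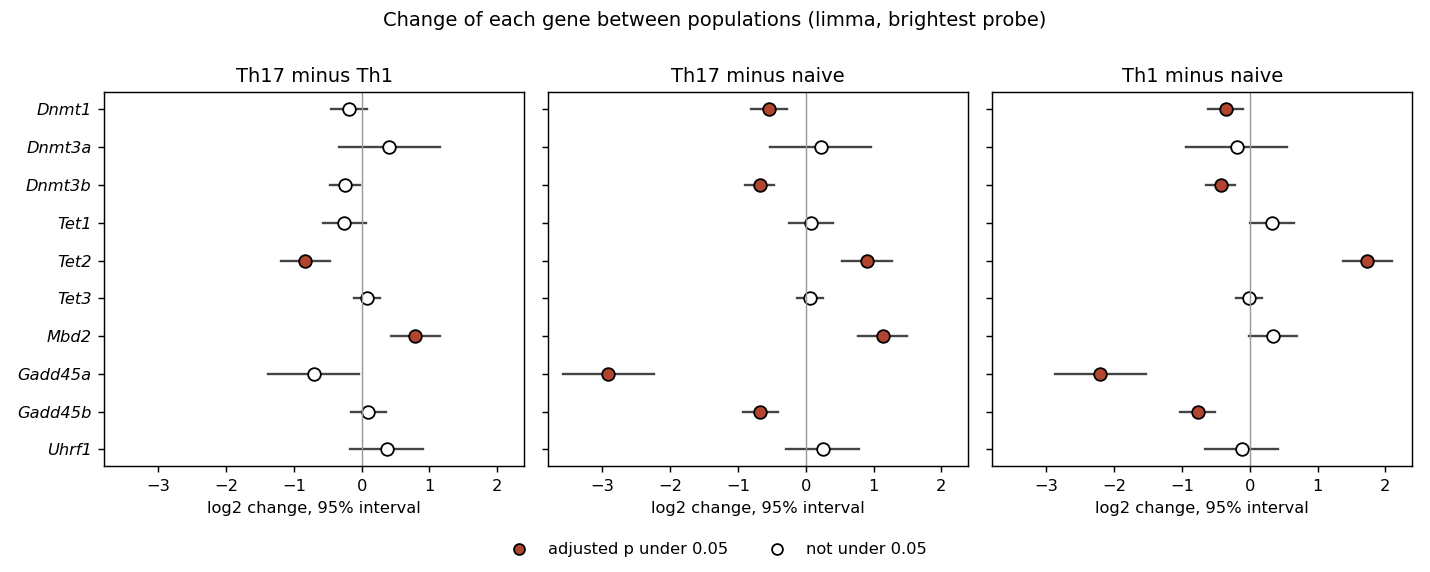
Change of each gene between populations (x axis, log2 change with its 95% interval; y axis, the 10 genes) for Th17 minus Th1, Th17 minus naive and Th1 minus naive cells. Filled points passed at an adjusted p under 0.05, which holds for 2, 6 and 5 genes, and the change of Gadd45a against naive cells is -2.91 in Th17 and -2.21 in Th1 cells.

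Among the writers, Dnmt1, the maintenance enzyme, had levels of -1.88, -1.98 and -2.23 on the Th17 arrays, -1.96, -1.75 and -1.83 on the Th1 arrays, and -1.52, -1.44 and -1.51 on the naive arrays. All 3 naive arrays lay above every other array, and the Th17 and Th1 arrays overlapped. Dnmt1 fell by 0.54 in Th17 against naive cells (SE 0.12, adjusted p = 0.00434, 1.45-fold). In Th1 against naive cells it fell by 0.36 (SE 0.12, adjusted p = 0.0287, 1.28-fold), but this call was lost without Th1 replicate 1 or 3 or any single naive array (-0.37 to -0.30, adjusted p between 0.0559 and 0.0857). It was also lost within slide 1, at -0.47 (adjusted p = 0.0569), a fit in which the single Th1 array is assumed to vary like the 3 naive arrays, here and for the other genes, and with scaling to the 75th percentile of the probes above background on all arrays, at -0.21 (adjusted p = 0.190). The call in Th1 against naive cells was lost as well without the filter on dim probes. For Th17 minus Th1 the change was -0.18, with a 95% interval of -0.45 to 0.08 (adjusted p = 0.325).

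Uhrf1, the partner that brings Dnmt1 to half-methylated sites, did not pass in any comparison. Its levels were -0.19, -1.01 and -0.57 on the Th17 arrays, -0.82, -1.04 and -1.03 on the Th1 arrays, and -1.14, -0.46 and -0.93 on the naive arrays. The arrays of the 3 populations were interleaved, and the spread within Th17 (SD 0.41) and within naive cells (SD 0.35) was as large as the differences between means. The change was 0.37 for Th17 minus Th1 (95% interval -0.17 to 0.91), 0.25 for Th17 minus naive (-0.29 to 0.79) and -0.12 for Th1 minus naive (-0.66 to 0.42).

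Dnmt3b, an enzyme of new methylation, was measured by 3 probes that made the same calls. The brightest was at 2.0, 2.07 and 2.15 on the Th17 arrays, at 2.41, 2.28 and 2.28 on the Th1 arrays, and at 2.71, 2.85 and 2.70 on the naive arrays. On this probe the 3 populations did not overlap, with the Th17 arrays lowest and the naive arrays highest. Dnmt3b fell by 0.68 in Th17 against naive cells (SE 0.09, adjusted p = 0.00048, 1.60-fold) and fell by 0.43 in Th1 against naive cells (SE 0.09, adjusted p = 0.0053, 1.35-fold). The other 2 probes were at -0.69 and -0.75 in Th17 against naive cells and at -0.61 and -0.54 in Th1 against naive cells. With slide as a block the Th1 change of the brightest probe was -0.34 (adjusted p = 0.069) and did not pass. The second probe passed with the block (-0.65, adjusted p = 0.0174) and the dimmest did not (-0.43, adjusted p = 0.0556). Slide 1 is the slide that holds both populations, so the fit within it gives these same changes. For Th17 minus Th1 the brightest probe was at -0.25 (95% interval -0.47 to -0.03, adjusted p = 0.117), and it passed with quantile normalization at -0.30 (adjusted p = 0.0412) and with scaling to the probes above background on all arrays, also at -0.30 (adjusted p = 0.0479). The second and the dimmest probe were at -0.09 and -0.21 (adjusted p = 0.648 and 0.274), and on both the Th17 and Th1 arrays overlapped.

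Dnmt3a, the other enzyme of new methylation, had levels of 0.12, 0.85 and 0.96 on the Th17 arrays, -0.48, 0.73 and 0.44 on the Th1 arrays, and 0.29, 0.50 and 0.48 on the naive arrays. Th1 replicate 1, the Th1 array on slide 1, lay below all other arrays, and Th17 replicate 1 lay below the other Th17 arrays. None of its changes passed, at 0.41 for Th17 minus Th1 (95% interval -0.33 to 1.15), 0.22 for Th17 minus naive (-0.52 to 0.96) and -0.19 for Th1 minus naive (-0.93 to 0.55). The last depends on that 1 array. Within slide 1, where the 3 naive arrays are set against Th1 replicate 1 alone, it was -0.90. The fit with slide as a block takes its value from the same arrays and gave the same -0.90 (adjusted p = 0.0471). Without Th1 replicate 1 it was 0.16 (adjusted p = 0.620).

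Mbd2, the reader of the set, was higher in Th17 cells by both of its probes. The brighter was at 3.44, 2.95 and 3.09 on the Th17 arrays, at 2.61, 2.14 and 2.35 on the Th1 arrays, and at 2.01, 2.02 and 2.04 on the naive arrays. The 3 populations did not overlap, with Th17 cells highest and naive cells lowest. Mbd2 was 0.79 ± 0.16 higher in Th17 than in Th1 cells (adjusted p = 0.0115, 1.73-fold) and 1.13 ± 0.16 higher in Th17 than in naive cells (adjusted p = 0.000454, 2.20-fold). The dimmer probe gave 0.80 ± 0.17 and 1.09 ± 0.17 (adjusted p = 0.016 and 0.000921 over all 23216 probes, of which 16.0% and 54.4% passed). Within slide 2, which held 2 arrays of each, Mbd2 was at 0.94 for Th17 minus Th1 and did not pass (adjusted p = 0.0806), and the dimmer probe did not pass with slide as a block (0.85, adjusted p = 0.0508), within slide 2 (adjusted p = 0.133), in a fit of Th17 and Th1 arrays alone (0.80, adjusted p = 0.05003) or without Th1 replicate 2 (0.69, adjusted p = 0.0604). For Th1 minus naive Mbd2 was at 0.34 ± 0.16 (95% interval -0.02 to 0.70, adjusted p = 0.0966). This value passed with quantile normalization (0.48, adjusted p = 0.0262), with scaling to the probes above background on all arrays (0.49, adjusted p = 0.023) and within slide 1, with 1 Th1 array (0.58, adjusted p = 0.0325), but not with slide as a block (0.58, adjusted p = 0.0615).

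Among the Tet enzymes, Tet2 differed in all 3 comparisons. Its brighter probe was at 4.40, 3.97 and 4.33 on the Th17 arrays, at 5.23, 5.14 and 4.82 on the Th1 arrays, and at 3.23, 3.50 and 3.26 on the naive arrays. No population overlapped with another, in the order Th1, Th17, naive from high to low. Tet2 was 0.83 lower in Th17 than in Th1 cells (-0.83 ± 0.16, adjusted p = 0.00993, 1.78-fold), 0.91 ± 0.16 higher in Th17 than in naive cells (adjusted p = 0.00162, 1.87-fold) and 1.74 ± 0.16 higher in Th1 cells than in naive ones (adjusted p = 5.39e-05, 3.33-fold). The second probe read 2.73, 2.63 and 2.37 in Th17 cells, 3.78, 3.48 and 3.22 in Th1 cells, and 1.43, 1.50 and 1.37 in naive cells. It gave the same order and the same 3 calls, at -0.92, 1.14 and 2.06. For Th17 minus Th1 the brighter probe did not pass with slide as a block (-0.79, adjusted p = 0.0518) or within slide 2 (adjusted p = 0.114), while the second probe passed with the block (-0.67, adjusted p = 0.0225) and not within slide 2 (adjusted p = 0.0751). With the block the brighter probe was at 1.11 for Th17 minus naive and at 1.91 for Th1 minus naive (adjusted p = 0.0377 and 0.00156).

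Tet1 had levels of -3.42, -3.24 and -3.72 on the Th17 arrays, -3.13, -3.11 and -3.37 on the Th1 arrays, and -3.62, -3.52 and -3.46 on the naive arrays. The Th1 arrays lay above the naive arrays, and the Th17 arrays overlapped with both. No change passed, at -0.26 for Th17 minus Th1 (95% interval -0.58 to 0.07), 0.07 for Th17 minus naive (-0.25 to 0.40) and 0.33 ± 0.14 for Th1 minus naive (0.01 to 0.65, adjusted p = 0.0769). The last passed with scaling to the probes above background on all arrays (0.48, adjusted p = 0.0216), in a fit of Th1 and naive arrays alone (0.33, adjusted p = 0.0408) and without Th17 replicate 3, which enters only the shared spread (adjusted p = 0.0324).

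The 3 probes of Tet3 disagreed. The brightest lay between -1.83 and -1.63 on all 9 arrays and passed in no comparison, with changes of 0.08 for Th17 minus Th1 (95% interval -0.12 to 0.27), 0.06 for Th17 minus naive (-0.13 to 0.26) and -0.01 for Th1 minus naive (-0.21 to 0.18). The second probe read -1.59, -1.94 and -1.58 in Th17 cells, -2.39, -2.50 and -2.27 in Th1 cells, and -2.01, -2.19 and -2.42 in naive cells. It was 0.68 ± 0.15 higher in Th17 than in Th1 cells (adjusted p = 0.0156) and 0.50 ± 0.15 higher in Th17 than in naive cells (adjusted p = 0.0187). With slide as a block these were 0.62 and 0.43 and did not pass (adjusted p = 0.0935 and 0.311). The first call also ended without Th17 replicate 1 or Th1 replicate 2 (adjusted p = 0.0522 and 0.0616), and the second without Th17 replicate 1 or 3 or naive replicate 3 (adjusted p = 0.0599, 0.0535 and 0.0699). The dimmest probe read -3.38, -3.31 and -2.26 in Th17 cells, -3.27, -3.36 and -3.36 in Th1 cells, and -2.51, -2.49 and -2.54 in naive cells, with Th17 replicate 3, the array on slide 3, standing apart from the other Th17 arrays. For Th1 minus naive it was lower, at -0.81 ± 0.26 (adjusted p = 0.0295), and leaving out any 1 Th1 or naive array ended this call (adjusted p between 0.057 and 0.0733). In Th17 minus naive it was at -0.47 (adjusted p = 0.167), and at -0.83 without Th17 replicate 3 (adjusted p = 0.000274). The deposited files do not say which transcripts of Tet3 each probe reads, so a direction for Tet3 is not given.

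**Figure D3:**
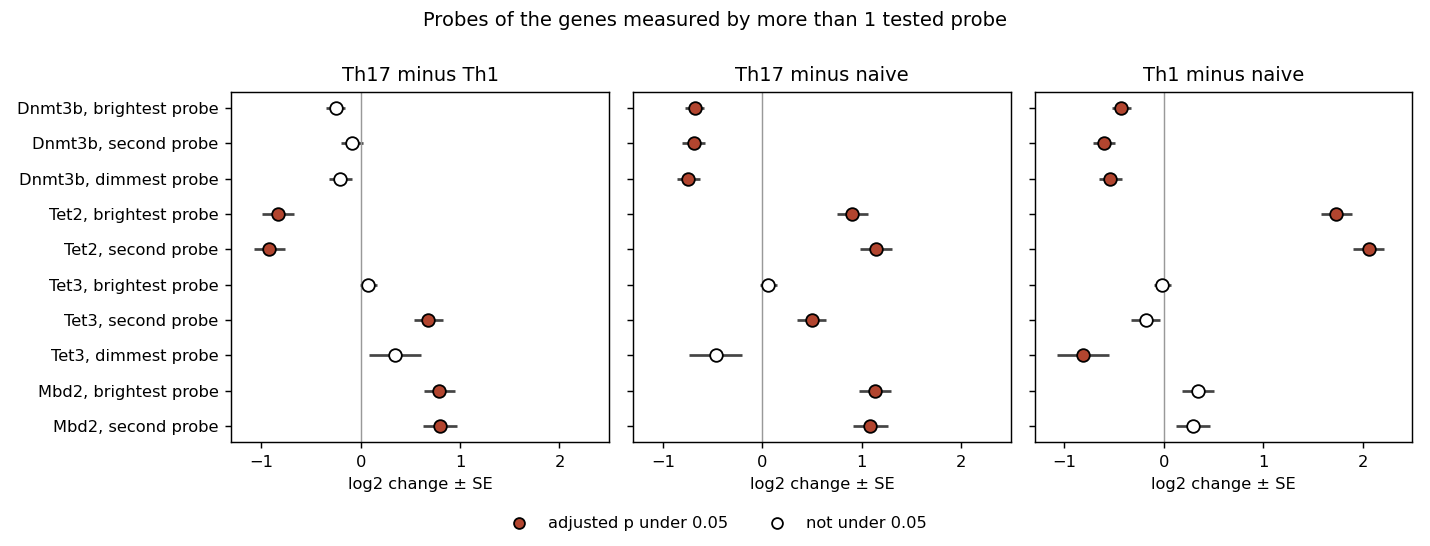
Change ± SE (x axis, log2) of each tested probe of Dnmt3b, Tet2, Tet3 and Mbd2 (y axis, probes from bright to dim within a gene) in the 3 comparisons. Filled points passed at an adjusted p under 0.05 over all probes. The probes of Dnmt3b, Tet2 and Mbd2 made the same calls, while those of Tet3 differed.

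Gadd45a, a stress-inducible adaptor and known p53 target, had levels of -2.59, -3.25 and -2.91 on the Th17 arrays, -1.50, -2.46 and -2.68 on the Th1 arrays, and 0.00, -0.05 and 0.03 on the naive arrays. The naive arrays lay close together (SD 0.04) and above every other array. Gadd45a fell by 2.91 in Th17 against naive cells (SE 0.29, adjusted p = 8.07e-05, 7.54-fold) and fell by 2.21 in Th1 against naive cells (SE 0.29, adjusted p = 0.000397, 4.62-fold). For Th17 minus Th1 the change was -0.71 ± 0.29 and did not pass (95% interval -1.38 to -0.03, adjusted p = 0.146). With slide as a block the changes were -1.86 in Th17 and -1.50 in Th1 against naive cells (adjusted p = 0.0107 and 0.00544). Th1 replicate 1, which shares slide 1 with the naive arrays, was the highest of the Th1 arrays, and the Th1 change was -2.56 without it (adjusted p = 6.92e-05).

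Gadd45b, an adaptor that T cell activation and NF-kappa-B are known to induce, had levels of 6.49, 6.72 and 6.50 on the Th17 arrays, 6.45, 6.58 and 6.38 on the Th1 arrays, and 7.19, 7.39 and 7.15 on the naive arrays. All naive arrays lay above all others, and the Th17 and Th1 arrays overlapped. Gadd45b fell by 0.67 in Th17 against naive cells (SE 0.11, adjusted p = 0.00132, 1.59-fold) and fell by 0.77 in Th1 against naive cells (SE 0.11, adjusted p = 0.000667, 1.70-fold). The Th17 change had the same size with slide as a block, -0.66, but did not pass there (adjusted p = 0.0721). Th17 and Th1 cells differed by 0.10, with a 95% interval of -0.16 to 0.36 (adjusted p = 0.601).

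The other genes of the pathway were taken from lists by function, and each list is given by its counts, which stand beside the 15.8%, 54.2% and 53.9% of all genes that passed in the 3 comparisons. With slide as a block the counts over all 19072 genes fell too, to 2145 from 3015, to 5242 from 10333 and to 7893 from 10289. Block counts of the lists stand beside these, and a lower count with the block is not particular to a list. A gene is named for a comparison in which its p was among the 3 smallest of its list. A change given for Th17 or Th1 cells alone can therefore be present in the other population too. Of the 13 measured further writers and writer partners, 4 rose and 6 fell in Th17 against naive cells, 2 rose and 5 fell in Th1 against naive cells, and 0 passed between Th17 and Th1 cells (4 at an unadjusted p under 0.05 by limma). Ezh2, the histone H3 lysine methyltransferase of Polycomb, fell by 1.28 in Th17 and fell by 1.15 in Th1 against naive cells. Trim28, the corepressor recruited by zinc finger proteins, fell by 0.93 in Th17 and fell by 1.04 in Th1 against naive cells, and Smchd1, a chromosomal protein of X inactivation, fell by 0.90 in Th17 against naive cells. Mean levels of Smchd1 were 2.77 in Th17, 3.09 in Th1 and 3.67 in naive cells. Uhrf2, the relative of Uhrf1, moved the other way and rose by 0.96 ± 0.14 in Th1 against naive cells (adjusted p = 0.000748). Its mean levels were 2.36 in Th17, 2.80 in Th1 and 1.84 in naive cells. In Th17 minus Th1, Smchd1 was at -0.32, Uhrf2 at -0.44 and Trdmt1, an RNA cytosine methyltransferase related to the Dnmt enzymes, at 0.44 (adjusted p = 0.0617, 0.0751 and 0.125). In Th17 against naive cells 6 of the 13 genes passed with slide as a block, in place of 10.

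A further list held readers of methylated CG and relatives of them, not all of which need bind the mark. Of its 9 measured genes, 3 rose and 2 fell in Th17 against naive cells, 2 rose and 1 fell in Th1 against naive cells, and 0 passed between Th17 and Th1 cells (1 at an unadjusted p under 0.05). The slide block left 2 of the 9 in Th17 against naive cells in place of 5, leaving out any single Th17 or naive array left 2 or 3 there, and without naive replicate 2 the count for Th1 against naive cells was 1. Mbd1 rose by 0.49 in Th17 and by 0.41 in Th1 against naive cells, but neither passed with slide as a block (adjusted p = 0.274 and 0.116). Mbd3, the NuRD subunit most like Mbd2, fell by 0.34 in Th17 and fell by 0.59 in Th1 against naive cells. The Th17 change of Mbd3 did not pass with slide as a block (-0.57, adjusted p = 0.0509) and the Th1 change did (-0.76, adjusted p = 0.00565). Zbtb4, a zinc finger reader, fell by 0.58 in Th17 against naive cells and did not pass with the block (adjusted p = 0.198). Some of these calls ended when single arrays were left out, for Mbd3 in Th17 cells without Th17 replicate 1 or 3 or naive replicate 2 or 3 (adjusted p up to 0.0837), and for Mbd1 in Th1 cells without Th1 replicate 2 or naive replicate 2 (up to adjusted p = 0.0542). In Th17 minus Th1, Mbd3 and Zfp57 were at 0.25 and 0.33 and did not pass (adjusted p = 0.152 and 0.194), and Zfp57 passed with slide as a block (0.54, adjusted p = 0.0341).

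NuRD, the complex that Mbd2 recruits, had 11 measured subunits, of which 1 rose and 5 fell in Th17 against naive cells and 0 rose and 5 fell in Th1 against naive cells. Gatad2a, a scaffold subunit, fell by 1.19 in Th17 and fell by 1.55 in Th1 against naive cells, and the deacetylase Hdac1 fell by 1.15 in Th17 and fell by 0.74 in Th1 cells. Cdk2ap1 fell by 0.83 in Th17 against naive cells, and the remodelling ATPase Chd4 fell by 1.0 in Th1 against naive cells. Mean levels of Chd4 were 5.81 in Th17, 5.74 in Th1 and 6.74 in naive cells. The median of the 11 was -0.31 for Th17 minus naive and -0.33 for Th1 minus naive, beside -0.09 and -0.09 over all genes. Lower list medians were present elsewhere. For Th17 minus naive the list medians ran from -0.35 (p53 and stress response genes) to 0.20 (methyl donor and 2-oxoglutarate genes). For Th1 minus naive they ran from -0.43 (NF-kappa-B response genes) to 0.18 (other readers). Between Th17 and Th1 cells Mta3 was 0.68 higher and Cdk2ap1 was 0.59 lower (adjusted p = 0.0214 and 0.00495), Gatad2a was at 0.36 (adjusted p = 0.0522), and with slide as a block Mta3 did not pass (adjusted p = 0.0736). The call of Mta3 also ended without Th17 replicate 2 or any single Th1 array (adjusted p up to 0.066).

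Of 17 measured genes of demethylation and base excision repair, 4 rose and 4 fell in Th17 against naive cells, and 3 rose and 3 fell in Th1 against naive cells. The block left 5 in Th17 against naive cells in place of 8. Neil2, a DNA glycosylase of oxidised bases, was above background on all Th17 and Th1 arrays and not well above it on any naive array, so its rise is a lower bound. The bound sets the mean of the brighter arrays against that of the naive arrays, each taken at the lowest signal well above background there, or at its own signal where that was higher. Neil2 was at least 2.10-fold higher in Th17 than in naive cells (levels -4.11 and -7.15, adjusted p = 5.67e-06) and at least 2.5-fold higher in Th1 cells (level -3.86, adjusted p = 3.79e-06). Lig3, the ligase that seals repaired strands, rose by 1.0 in Th17 and by 0.71 in Th1 against naive cells, and Ogt, the glycosyltransferase that binds Tet proteins, rose by 2.75 ± 0.27 in Th1 against naive cells. Mean levels of Ogt were 2.25 in Th17, 2.97 in Th1 and 0.22 in naive cells. Cxxc5, a CG-binding protein that interacts with Tet2, fell by 2.18 ± 0.28 in Th17 against naive cells, but was well above background on 1 of the 3 Th17 arrays, so the sizes of its changes in Th17 cells are uncertain. Its mean levels were -5.29 in Th17, -4.28 in Th1 and -3.11 in naive cells. Cxxc5 and Gadd45g, the third Gadd45 gene, were the 2 that passed between Th17 and Th1 cells, 1.01 and 1.36 lower in Th17 cells (-1.01 ± 0.28 and -1.36 ± 0.34, adjusted p = 0.0442 and 0.029), while Apobec1 was at -0.41 (adjusted p = 0.0691). Gadd45g did not pass with slide as a block (-0.78, adjusted p = 0.105), and Cxxc5 did (-1.11, adjusted p = 0.0173). Neither call held in every fit that left out an array. That of Gadd45g ended, with an adjusted p of up to 0.0783, when Th17 replicate 2 or 3 or Th1 replicate 1 or 3 was left out, and that of Cxxc5 ended without any single array other than Th17 replicate 3 (adjusted p up to 0.123).

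The supply of methyl groups and of 2-oxoglutarate was represented by 18 measured genes, of which 5 rose and 0 fell in Th17 against Th1 cells, 8 rose and 4 fell in Th17 against naive cells, and 4 rose and 4 fell in Th1 against naive cells. These counts were, with slide as a block, 3, 7 and 4 in place of 5, 12 and 8, and leaving out single arrays left 3 or 4 between Th17 and Th1 cells. Shmt2 and Mthfd2, mitochondrial enzymes of the folate cycle, were 0.82 ± 0.09 and 0.71 ± 0.09 higher in Th17 than in Th1 cells (adjusted p = 0.000705 and 0.00145). Both passed with slide as a block and within slide 2, fits that give the same change and are not separate checks. Idh2, the mitochondrial enzyme that makes 2-oxoglutarate, fell by 2.99 ± 0.17 in Th17 and fell by 2.78 ± 0.17 in Th1 against naive cells. Ahcyl2, a relative of the enzyme that clears S-adenosylhomocysteine, fell by 1.42 in Th1 against naive cells. Its mean levels were 3.88 in Th17, 3.44 in Th1 and 4.86 in naive cells. Shmt2 was 0.89 higher in Th17 than in naive cells, and Sdha, a succinate dehydrogenase subunit, rose by 1.02 in Th17 and by 0.96 in Th1 against naive cells.

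Because Dnmt1 and Uhrf1 follow cell division in many cells, 22 measured genes of DNA replication and division were set beside them. In Th17 against Th1 cells 3 rose and 0 fell, in Th17 against naive cells 8 rose and 9 fell, and in Th1 against naive cells 4 rose and 8 fell. The count in Th17 against naive cells was 11 with slide as a block in place of 17, and without Th17 replicate 2 the count for Th17 against Th1 cells was 5. Ccna2, the cyclin of S phase and mitosis, was above background on the 3 Th17 arrays and not well above it on any Th1 or naive array. It was at least 3.05-fold higher in Th17 than in Th1 cells (levels -3.48 and -5.30, adjusted p = 0.0025) and at least 3.24-fold higher in Th17 than in naive cells (naive level -6.04, adjusted p = 8.3e-05). Birc5, survivin, was 1.31 ± 0.26 higher in Th17 than in Th1 cells. E2f1, a transcription factor of S phase entry, fell by 2.88 ± 0.15 in Th17 and fell by 2.93 ± 0.15 in Th1 against naive cells, and Mcm4, a subunit of the replicative helicase, fell by 1.43 in Th17 and fell by 1.03 in Th1 cells. Ccne1, the cyclin of the step into S phase, fell by 1.07 in Th1 against naive cells, with mean levels of -1.96 in Th17, -2.35 in Th1 and -1.28 in naive cells. Among the genes with higher levels than in naive cells, Mki67 was at -0.58 in Th17, -1.59 in Th1 and -4.09 in naive cells, and Top2a at -1.91, -2.18 and -2.95. Mcm3 was 0.45 higher in Th17 than in Th1 cells (adjusted p = 0.0424), a call lost with slide as a block (0.35, adjusted p = 0.129) and without any single array other than Th17 replicate 2 (adjusted p up to 0.115). The list held genes that moved in both directions against naive cells, in which Dnmt1 was lower and Uhrf1 did not pass, and the relation between them was not tested.

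The 2 Gadd45 genes were set beside 12 p53 and stress response genes and 13 NF-kappa-B response genes. In the stress list 4 rose and 3 fell in Th17 against Th1 cells, 3 rose and 5 fell in Th17 against naive cells, and 4 rose and 5 fell in Th1 against naive cells. Cdkn1a, the p53-induced cell cycle inhibitor p21, fell by 1.66 ± 0.21 in Th17 and fell by 2.45 ± 0.21 in Th1 against naive cells, and Sesn1, another p53 target, fell by 2.10 in Th17 and fell by 2.27 in Th1 cells. Pmaip1, a p53-induced death gene, moved the other way, 2.5 ± 0.26 higher in Th17 than in naive cells, and Trp53inp1 rose by 1.33 ± 0.13 in Th1 against naive cells. Mean levels in Th17, Th1 and naive cells were 0.89, -0.04 and -1.62 for Pmaip1 and 5.04, 5.70 and 4.36 for Trp53inp1. Between Th17 and Th1 cells Btg2, an antiproliferative gene, was 1.76 lower (-1.76 ± 0.19, adjusted p = 0.00056), Trp53inp1 was 0.65 lower (-0.65 ± 0.13, adjusted p = 0.012) and Bbc3, a death gene, was 1.32 ± 0.29 higher (adjusted p = 0.0182). Of the 12 genes 1 passed between Th17 and Th1 cells with slide as a block, and leaving out single arrays left between 2 and 6. In Th17 against naive cells 4 passed with the block in place of 8, and 5 without Th17 replicate 3 or naive replicate 2. The call of Bbc3 ended without Th17 replicate 2 or 3 (adjusted p up to 0.0553).

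In the NF-kappa-B list 2 rose and 1 fell in Th17 against Th1 cells, 2 rose and 6 fell in Th17 against naive cells, and 2 rose and 6 fell in Th1 against naive cells. In Th17 against naive cells 5 passed with slide as a block in place of 8, and in Th1 against naive cells 5 passed without Th1 replicate 1 or naive replicate 3. Icam1, an adhesion molecule, fell by 3.27 ± 0.21 in Th17 and fell by 2.93 ± 0.21 in Th1 against naive cells. The inhibitors Nfkbie and Tnfaip3, induced by the pathway they restrain, were at -1.49 and -1.45 in Th17 against naive cells and at -1.21 and -1.19 in Th1 against naive cells, and each passed. Gadd45b had moved in the same direction, by -0.67 and -0.77, and any link was not tested. Between Th17 and Th1 cells Nfkb1 was 0.55 ± 0.10 higher, Rel was 0.57 lower (-0.57 ± 0.13) and Tnf was 0.89 ± 0.25 higher (adjusted p = 0.00883, 0.0223 and 0.0471), of which 1, Nfkb1, passed with slide as a block (adjusted p = 0.0431). The call of Rel ended, with an adjusted p of up to 0.0761, when Th17 replicate 2 or 3 or Th1 replicate 1 or 2 was left out, and that of Tnf ended without any single Th17 array, Th1 replicate 1 or 3 or naive replicate 2 or 3 (adjusted p up to 0.12).

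**Figure D4:**
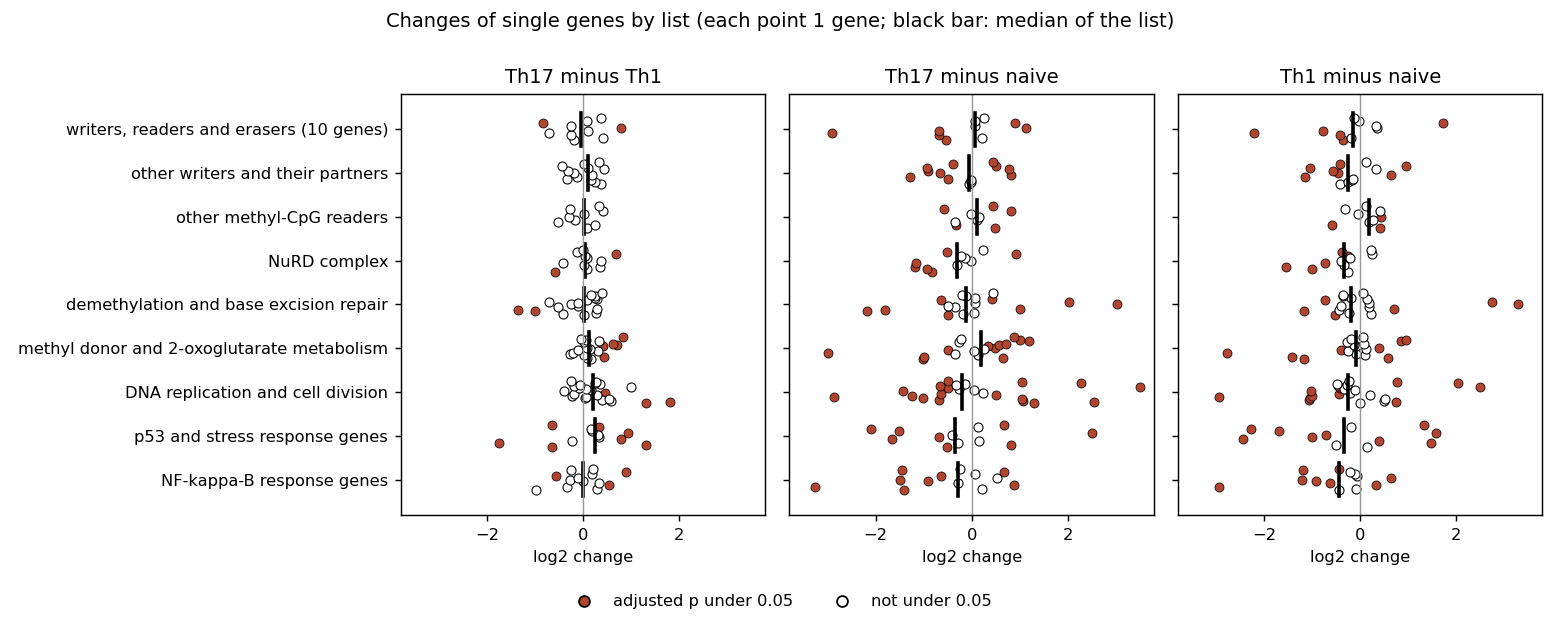
Change of single genes (x axis, log2; each point 1 measured gene) by list (y axis), for Th17 minus Th1, Th17 minus naive and Th1 minus naive cells, with the median of each list as a black bar. Filled points passed at an adjusted p under 0.05. The points of Neil2 and Tk1 against naive cells and of Ccna2 in the 3 comparisons are fitted values against arrays not well above background. Most lists hold genes on both sides of 0. Against naive cells the list medians lie between -0.35 and 0.20 in Th17 and between -0.43 and 0.18 in Th1 cells.

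The genes whose levels ran most like those of each member over the 9 arrays were found by the distance between levels centred on their own mean, given here as the root mean square difference in log2 units. For Gadd45a they included Tnfrsf26, at 0.25, with differences of -2.75 for Th17 minus naive and of -1.86 for Th1 minus naive. For Tet2 they were Stk39 and Zfp703, at 0.13 and 0.14, with differences of 1.03 and 1.08 for Th17 minus naive and of 1.82 and 1.79 for Th1 minus naive. For Mbd2 they were Mtap, the phosphorylase that salvages methionine, and Cst3, cystatin C, at 0.10 each, with 1.18 and 1.10 for Th17 minus naive and 0.30 and 0.42 for Th1 minus naive. Dnmt1 lay nearest to Sbf1 and Nes (0.07 each), Dnmt3b to Cggbp1 and Hspa14 (0.06 each) and Gadd45b to Mfng and Aplp2 (0.06 and 0.07). The members that passed in no comparison lay nearest to Arhgef2 and Tardbp for Dnmt3a (0.18 and 0.19), to Rps23rg1 and Nt5c1a for Tet1 (0.06 and 0.08), to Gng5 and Mogs for Tet3 (0.04 and 0.05) and to Ccdc127 and Rtn3 for Uhrf1 (0.17 and 0.17). Nearness is a description of these 9 arrays.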

How the data were processed

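RNA of 3 arrays each of Th17, Th1 and naive cells was labelled with Cy3 and hybridised to 1-colour Agilent arrays of design 026655. The deposited array files hold a processed intensity for each spot, background-subtracted by the authors with Agilent Feature Extraction, version 10.7.3.1 per the file headers and 10.5 per the submitters' processing notes. A further deposited table has log2 values that match the log2 intensity relative to each array's 75th percentile after 1 constant for every probe is taken off, and the baseline of that constant is unknown. Its column medians lay between -0.10 and 0.28, and its direction follows that of the intensities. It served as an alternative.

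Control spots and outlier spots were left out, log2 of the processed intensity was set relative to the 75th percentile of each array, and replicate spots were then averaged by probe. RefSeq accessions gave a symbol to 27234 of the 39429 probes. Probes well above background on at least 3 of 9 arrays (23216) were kept, and the brightest stood for each gene (19072 genes). The share of probes above background ran between 53.4% and 58.3% per array, and the number of arrays limits the precision. The header names build mm9, and the promoter windows are RefSeq's on another build, so no probe position is given. A single limma model (version 3.58.1, R 4.3.3, tables read with version 1.17.8 of data.table) covered all 3 populations and was tested on simulated data first, and p-values were adjusted by Benjamini-Hochberg. Whether replicates came from separate animals or sorts is not given in the labels, and the p-values then reflect only how far these samples scatter, possibly for technical reasons. Deviations from the population means correlated between -0.007 and 0.175 for arrays of the same number and between -0.197 and 0.065 for others. The highest value was thus between arrays of the same number, replicate 2 of Th1 and of Th17. Whether arrays of the same number share a source was not tested. The main fit did not pair samples, and a replicate block served as an alternative.

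Named genes were all 10 members with every probe, the 3 genes with the smallest p of each list in each comparison, the 2 nearest genes of each member and a few markers, of which some are not reported here. The members and lists were chosen with earlier results of these data known. The 22 alternatives were another background correction (normexp), normalizations, filters, probe summaries, blocks and within-slide fits, a replicate block, pairs of populations fitted alone and leaving out each array. Of these, 1 was chosen after seeing the data.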

Additional observations from a re-analysis of the deposited data

How the results depend on the processing

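Member counts (2 for Th17 minus Th1, 6 for Th17 minus naive, 5 for Th1 minus naive) were 2, 6 and 5 with the replicate block, which changed no count of member calls. Leaving out single arrays gave 2 to 2, 6 to 6 and 4 to 6, and all-gene counts of 1924 (without Th1 replicate 2) to 2784, 8822 to 10329 and 8663 to 10980. With slide as a block 1 member and 2145 of all genes passed for Th17 minus Th1. For Th17 minus naive 5 members and 5242 genes passed with the block, and for Th1 minus naive 5 members and 7893 genes. Within slide 2, 0 members (2 at an unadjusted p under 0.05) and 1419 genes passed for Th17 minus Th1, and within slide 1, 6546 genes passed for Th1 minus naive. Normexp background correction left 0, 1 and 0 members (1, 1 and 2 at an unadjusted p under 0.05) and 175, 1230 and 1248 genes. On Th1 replicate 2, 5 local backgrounds exceeded 1000 and the highest was 168530. In an alternative chosen after seeing the data, every local background flagged as an outlier, on any array, was replaced by the median of its array. There 2, 6 and 5 members passed, and the part of the 5 highest backgrounds in this was not tested.

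With scaling to the probes above background on all arrays, 3 members were higher and 3 lower for Th1 minus naive, the median of all genes moved to 0.06 from -0.09, and the share of higher calls to 55.1% from 43.6%. For Th17 minus Th1 that share moved to 43.8% from 52.4%.

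Of the 620 changes of members under alternatives, 562 kept direction and side of the threshold. Those of opposite sign to the reported value were, with normexp, Dnmt1 (0.077), Mbd2 (-0.14), Tet3 (0.39) and Uhrf1 (0.14) for Th1 minus naive, and Dnmt3b (0.23) and Tet3 (-0.34) for Th17 minus Th1. The dimmer Tet3 probes gave 0.32 and 0.44 for Th1 minus naive and -0.40 and -0.073 for Th17 minus Th1 there. With outlier backgrounds replaced, Tet1 was at 0.0081 for Th17 minus Th1. Quantile normalization gave Gadd45b -0.027 for Th17 minus Th1, and Tet1 -0.0041 and Tet3 -0.011 for Th17 minus naive. With slide as a block Dnmt3a was at -0.10 for Th17 minus Th1 (also within slide 2) and at -1.0 for Th17 minus naive, and for Th1 minus naive Tet3 was at 0.072 and Uhrf1 at 0.025, as within slide 1. Scaling to the probes above background on all arrays gave Tet3 0.13 and Uhrf1 0.029 for Th1 minus naive. Fits that left out 1 array crossed 0 for Dnmt3a (-0.44 to 0.16, positive without Th1 replicate 1), Tet3 (-0.058 to 0.031, positive without Th1 replicate 3) and Uhrf1 (-0.27 to 0.072, positive without naive replicate 2) for Th1 minus naive, and for Tet1 in Th17 minus naive (-0.036 to 0.21, negative without Th17 replicate 2). For Th17 minus Th1 they crossed 0 for the second Dnmt3b probe (-0.15 to 0.0011, positive without Th1 replicate 3) and the dimmest Tet3 probe (-0.016 to 0.55, negative without Th17 replicate 3). The cause was not tested for any of these.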
